A study of Danio rerio with 4 samples.

Results

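Apolipoproteins are the proteins that coat lipoprotein particles, the carriers of triglyceride and cholesterol in blood. They were followed here in cells sorted from zebrafish embryos 24 hours after fertilization. The genes were taken by name, as every row of the expression table whose symbol begins with apoa and a digit, apoba, apobb, apoc and a digit, apoea or apoeb. This gave 11 of the 31716 genes. They were apoa1a, apoa1b, apoa2, apoa4, apoba, apobb, apoc1l, apoc2, apoea, apoeb and apoa1bp. The last one matches by spelling only, since it codes for an enzyme that binds apolipoprotein A-I (NAXE in the reference of gene names) and not for an apolipoprotein.

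Both groups came from embryos of the strain Tg(fli1a:egfp), in which regulatory sequence of fli1a drives enhanced green fluorescent protein (GFP), with no other allele or treatment named in the labels. Dissociated, fixed cells were sorted by fluorescence, and RNA was taken by MARIS, a protocol for fixed and sorted cells. GFP-positive cells are labelled as endothelial, the cells that line vessels, and GFP-negative cells as non-endothelial, with 2 RNA-seq libraries for each. The stated aim was to set expression by cell type beside chromatin accessibility, which was not analysed here. The transgene is also known from blood and cranial neural crest cells, so the GFP-positive fraction is not endothelium alone. The transgene's own gene, fli1a, was 39.6-fold higher in the GFP-positive fraction in the authors' deposited table, which describes the sort.

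In the embryo before feeding, lipid leaves the yolk through the yolk syncytial layer, a multinucleate layer around the yolk that packs it into lipoproteins. Apolipoprotein B is the structural protein of these particles. The A, C and E apolipoproteins sit on the surface, where apolipoprotein E is a ligand for receptors of the LDL receptor family, apolipoprotein C-II activates lipoprotein lipase, and apolipoprotein C-I is known from mammals to hinder particle uptake. In fish as in mammals, apolipoprotein E is also made outside the yolk and liver, and macrophages are a known source.

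Each level below is the authors' single FPKM value for a fraction (mapped fragments scaled by transcript length and library size), a level per length that can be compared between genes. Single libraries have no values here, so there is no standard deviation, and the depth is unknown. Nothing in the labels ties the libraries of a fraction to separate clutches, so p-values refer to these libraries and their spread may be technical. A gene is said to be called when its q-value in the authors' deposited Cuffdiff comparison is under 0.05. In a bulk fraction, fewer cells that express a gene and less RNA in each of them cannot be told apart.

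The summed level of the 11 genes came mostly from apoc1l and apoeb in both fractions. Together they held 93.6% of the summed FPKM of the 11 genes in GFP-negative cells and 90.8% in GFP-positive cells. The sum itself was 609 FPKM in GFP-negative and 254 FPKM in GFP-positive cells. These sums include apoa1bp, which is not an apolipoprotein gene and held 1.79% in GFP-negative and 7.34% in GFP-positive cells. The 2 shares of apoc1l and apoeb are therefore not to be compared between the fractions. None of the other 9 genes was above 18.7 FPKM in either fraction. That value is of apoa1bp, and the highest apolipoprotein gene among the 9 was apoa2, at 12.4 FPKM in GFP-negative cells. Of the 11 genes, 4 had enough alignments for a Cuffdiff test, namely apoc1l, apoeb, apoa2 and apoa1bp. The remaining 7 are listed without a test.

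**Figure D1:**
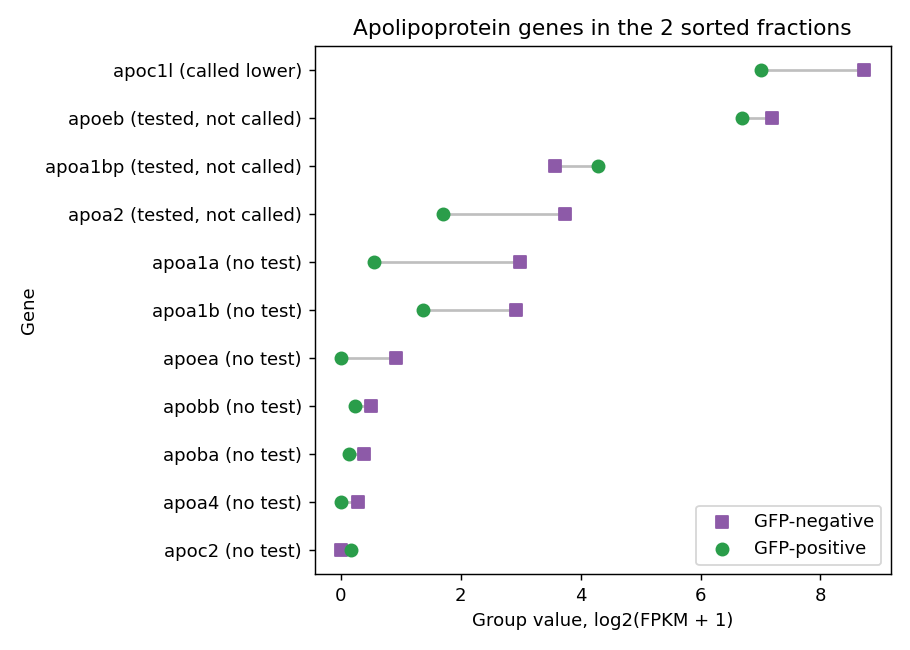
Authors' group value of each of the 11 genes on the log2(FPKM + 1) scale, with squares for GFP-negative and circles for GFP-positive cells, ordered by the larger value. The genes apoc1l and apoeb stand above 100 FPKM in both fractions, and the line between the symbols is longer for apoc1l than for apoeb.

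The C-I type gene apoc1l (ENSDARG00000092170, named apoc1 in the reference; chromosome 16, 26211418 to 26213014 in the Zv9 build) was lower in the GFP-positive fraction. Its level was 128 FPKM in the GFP-positive fraction and 424 FPKM in the GFP-negative fraction. In the authors' deposited table the difference was 3.31-fold, a log2 ratio of GFP-positive over GFP-negative of -1.73, and q was 0.00177. It was the only one of the 4 tested genes to be called. Across all 7299 tested genes 14.3% were called, 7.15% lower and 7.18% higher in the GFP-positive fraction, so 1 call among 4 genes is no result about the group. It was also called at a q of 0.01, as were 8.63% of tested genes. Of the 753 tested genes with a mean of at least 100 FPKM, 14.9% were called and 5.84% were called lower. Even so, apoc1l was abundant in both fractions. Among tested genes its level ranked 196th in GFP-negative and 626th in GFP-positive cells.

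The apolipoprotein E gene apoeb (ENSDARG00000040295; chromosome 16, 26200036 to 26202904) did not pass the test. Its level was 103 FPKM in the GFP-positive fraction and 146 FPKM in the GFP-negative fraction. The ratio in the authors' deposited table was 1.42-fold in favour of GFP-negative cells, a log2 ratio of -0.51 for GFP-positive over GFP-negative, with a q of 0.501. It ranked 510th among tested genes in GFP-negative and 753rd in GFP-positive cells.

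Other genes at this level show which differences were called. Within 1.5-fold of the mean level of apoeb there were 511 other tested genes, counting those above 0 in both fractions. The smallest ratio called among them in the authors' deposited table was 2.18-fold. Far larger ratios also went without a call, up to a log2 ratio of 9.73 in size, so 2.18-fold is no limit for calling. Of the 75 with a log2 ratio within 0.1 of the size seen for apoeb, 0 were called by Cuffdiff, and their smallest unadjusted p in the authors' deposited table was 0.115. Of the 194 with a ratio at least as large as that of apoeb, 95 were called. The q of apoeb does not show equal expression, and the part of depth or of spread between libraries in it was not tested. Around the mean level of apoc1l, 17 of 213 other genes had a ratio at least as large, and 15 of those 17 were called.

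The proportion between apoc1l and apoeb was not the same number in the fractions. The level of apoc1l was 2.91 times that of apoeb in GFP-negative cells and 1.25 times in GFP-positive cells. Whether the genes differ from each other in their response to the sort was not tested, since that needs values of single libraries.

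The A-type genes were much lower in level. The high-density lipoprotein gene apoa2 (chromosome 16, 26218270 to 26219653) had 2.26 FPKM in the GFP-positive fraction and 12.4 FPKM in the GFP-negative fraction. Its ratio of 5.47-fold was larger than that of apoc1l but did not pass, with p = 0.0289 unadjusted and q = 0.141 in the authors' deposited table. The copies of the main high-density lipoprotein gene had no test. For apoa1a (chromosome 5, 39578957 to 39589636) the values were 0.462 FPKM in the GFP-positive fraction and 6.96 FPKM in the GFP-negative fraction. For apoa1b (chromosome 15, 3556 to 5497) they were 1.60 and 6.60 FPKM. The locus of apoa1a also holds a row named RNF214 (1 of 2), at 18.1 and 15.4 FPKM, so reads may be shared. The apolipoprotein A-IV gene apoa4 stood at 0.216 FPKM in the GFP-negative fraction, with its GFP-positive value listed at 0.

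Apolipoprotein B, the structural protein of yolk-derived particles, was scarce. The values were 0.103 FPKM in the GFP-positive fraction and 0.308 FPKM in the GFP-negative fraction for apoba (chromosome 17, 30763177 to 30787076). For apobb they were 0.173 and 0.416 FPKM, and its locus (chromosome 20, 31257064 to 31334713) is shared with the rows HPCAL1, at 2.57 and 8.34 FPKM, and SLC22A16, at 2.68 and 1.25 FPKM. The second apolipoprotein E copy, apoea (chromosome 19, 11954271 to 11958954), stood at 0.887 FPKM in the GFP-negative fraction, with its GFP-positive value listed at 0. The lipase activator gene apoc2 stood at 0.123 FPKM in the GFP-positive fraction, with its GFP-negative value listed at 0. These genes had no test, and values this low rest on few alignments. The name match apoa1bp (chromosome 19, 8030770 to 8035183) had 18.7 and 10.9 FPKM, and it was not called (q = 0.424 in the authors' deposited table).

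In all, 9 of the 11 genes had the larger value in GFP-negative cells and 2, apoa1bp and apoc2, in GFP-positive cells. Of the 20810 rows above 0 in either fraction, 54.5% had the larger value in GFP-negative cells. With 1 added to each FPKM, the median log2 ratio of the GFP-positive to the GFP-negative value was -0.50 over the 11 genes and -0.07 over those rows. The median of the 11 is the value of apoeb, which was not called. Over all tested genes the median was 0.05, and 46.9% had the larger value in GFP-negative cells. Of the 11 genes, 7 had no test and apoa1bp is no apolipoprotein gene, so the count and the median are no result about the group. Several of the 11 genes are named as copies, such as apoa1a and apoa1b or apoea and apoeb, and other rows share the name of apoa4. Sequences were not compared, so whether reads were divided wrongly among such copies is not known.

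**Figure D2:**
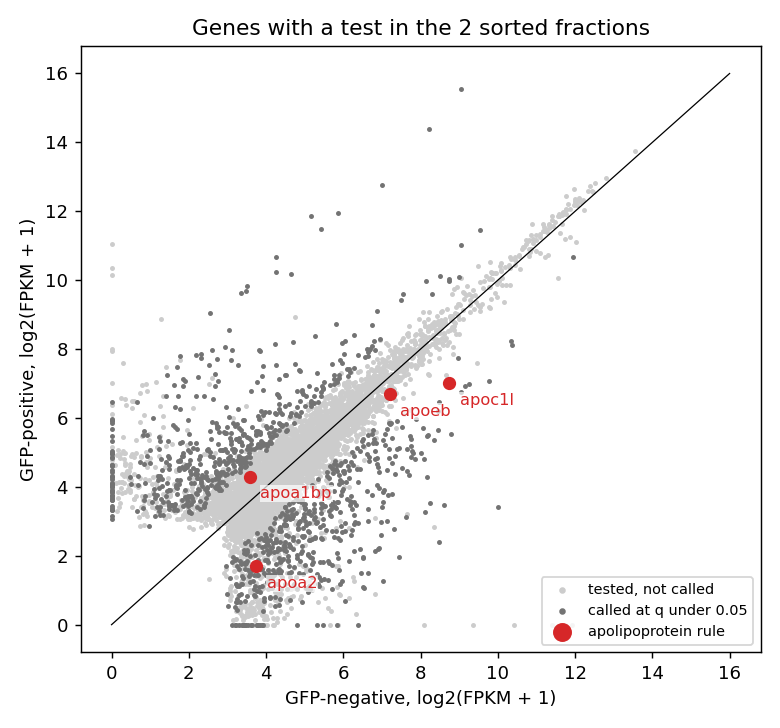
Each point is one of the 7299 tested genes, with its GFP-negative level on the horizontal and its GFP-positive level on the vertical axis, both as log2(FPKM + 1); dark points were called at a q under 0.05 in the authors' deposited table and the line marks equal levels. Among the 4 marked genes, apoc1l lies well below the line at a high level, apoeb close to it, apoa2 below it at a low level and apoa1bp above it.

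Position set 5 of the 11 genes together, although the rule used names alone. They were apoa4, apoeb, apoc1l, apoa2 and apoc2, and they lie within 80.2 kb on chromosome 16 (26153362 to 26233533). The stretch holds 9 rows in the table, with no row between apoeb and apoc1l, whose loci are 8.51 kb apart. From apoc1l to apoa2 the gap is 5.26 kb. The other 4 rows are APOA4 (1 of 4), APOA4 (4 of 4), si:dkey-7f3.14 and zgc:193682, the last named apoc4 in the reference. Of these 4, only APOA4 (1 of 4) had a value above 0, 1.44 FPKM in the GFP-negative fraction beside a GFP-positive value listed at 0. A later assembly, GRCz12tu of RefSeq, lists apoeb, apoc1, apoc4, apoa2 and apoc2 in this order too.

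Levels within the cluster were uneven. Of its summed FPKM in GFP-negative cells, 97.6% came from apoeb and apoc1l, while 3 of the 9 rows were listed at 0 in both fractions. Only 3 of the 9 rows had a test, those of apoeb, apoc1l and apoa2, and apoc1l alone was called. Beyond the cluster, bcam, an adhesion receptor gene that begins 25.0 kb past apoc2, was called lower as well. It had 7.50 FPKM in the GFP-positive fraction and 29.8 FPKM in the GFP-negative fraction, and the authors' deposited table gives it a q of 0.00752. On the other side, gtpbp10 had 5.88 and 6.36 FPKM and no test. A smaller arrangement of the same kind is on chromosome 19, where APOA4 (3 of 4) lies 4.32 kb from apoea and had 0.809 FPKM in the GFP-positive fraction and 1.07 FPKM in the GFP-negative fraction.

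**Figure D3:**
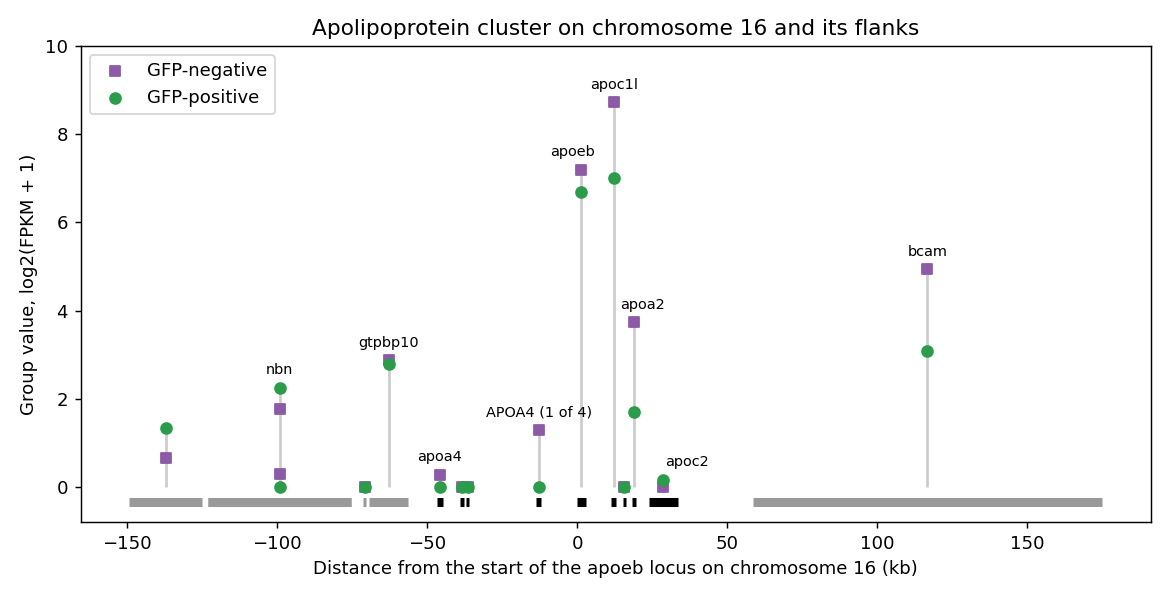
Group value as log2(FPKM + 1) of each row in and around the chromosome 16 cluster against distance from the start of the apoeb locus in kb, with squares for GFP-negative and circles for GFP-positive cells; bars at the foot show the loci, black inside the cluster and grey outside, and nbn shares its locus and position with osgin2. High levels are limited to apoeb and apoc1l, and the neighbours between them and apoa4 are near 0.

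The rows whose pair of levels was most like each tested gene were found by distance over log2(FPKM + 1) in the 2 fractions, which are 2 points and so describe level and ratio only. For apoeb the nearest were apex1, a DNA repair gene, srsf3a, a splicing factor gene, and ptmaa, at distances of 0.0733, 0.0896 and 0.0964. For apoc1l they were SNORA16 at 0.262, icn at 0.417 and the Hairy-type transcription factor gene her12 at 0.429. Few tested genes had levels like those of apoc1l, as its larger distances show. For apoa2 the nearest were tarsl2, ponzr5 and actn3b, at distances from 0.0614 to 0.0707. For apoa1bp they were eci2, col11a1b and ogn, at distances from 0.0391 to 0.0435.

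Most markers of the yolk syncytial layer, with which the apolipoprotein genes are often linked, were low in both fractions. Of 10 rows of that marker list, 6 were under 1 FPKM in both fractions. The transcription factor genes mxtx1 and mxtx2, which specify the layer, had 0.466 and 0.403 FPKM in GFP-positive and 0.245 and 0.250 FPKM in GFP-negative cells. The regulator hnf4a had 0.914 and 0.180 FPKM. The thyroid hormone carrier gene ttr was listed at 0 in both fractions. So was mtp, named MTTP in the reference, the gene of the transfer protein that loads lipid onto apolipoprotein B. The list's summed level was 23.1 FPKM in the GFP-positive fraction and 40.8 FPKM in the GFP-negative fraction. By Cuffdiff 0 of its 2 tested genes were called and 0 had an unadjusted p under 0.05, against 14.3% and 23.9% over all tested genes. The 2 with a test were the iron exporter gene slc40a1, with 14.2 and 12.2 FPKM, and the retinol carrier gene rbp4, with 2.11 and 25.5 FPKM. Most of the list's GFP-negative sum is thus from rbp4, whose locus holds 11 rows, so reads may be shared. The part of the yolk layer in the levels of the apolipoprotein genes was not tested, and these genes are described by name alone.

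Most liver genes were low as well, with 9 of 15 rows under 1 FPKM in both fractions. Of the 15 rows, 7 were listed at 0 in both fractions, among them fabp10a, the fatty acid binding protein of liver, and the fibrinogen genes fga and fgb. The list's summed level was 9.07 FPKM in the GFP-positive fraction and 62.0 FPKM in the GFP-negative fraction. Most of the GFP-negative sum came from onecut1 and prox1a, whose values are given below, so it is no measure of liver. Only 2 of the rows had a test, the transcription factor genes prox1a and onecut1, which are also expressed in the nervous system. Beside 7.15% of all tested genes, both were called lower in GFP-positive cells. Their values were 1.88 FPKM and 2.01 FPKM in the GFP-positive fraction, against 19.6 FPKM and 34.1 FPKM in the other. The authors' deposited table gives each a q of 0.000958. Both had a test through their GFP-negative level, so the shared side is no separate result and no result about liver genes.

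Most macrophage and leukocyte genes lay on the GFP-positive side, opposite to apoc1l. All 11 tested rows of the list were larger in the GFP-positive fraction. Their largest GFP-negative value was 1.87 FPKM (cyba). They thus had a test through their GFP-positive level, and the shared side is no separate result. Without a test, c1qa and c1qc were listed at 0 in GFP-positive and at 0.783 and 0.378 FPKM in GFP-negative cells. Beside 7.18% of all tested genes, 2 of the 11 were called higher. They were the pore-forming protein gene mpeg1, with 21.7 FPKM, and havcr1, with 49.8 FPKM, each listed at 0 in GFP-negative cells. The summed level of the 22 rows was 449.5 FPKM in the GFP-positive fraction and 8.21 FPKM in the GFP-negative fraction, and 10 of them were listed at 0 in GFP-negative cells. The highest, mfap4, had 176 FPKM in the GFP-positive fraction and 1.65 FPKM in the GFP-negative fraction and was not called (q = 0.561 in the authors' deposited table). The level of apoeb was above 100 FPKM in both fractions beside this difference in leukocyte genes. The part of these cells in the levels of apoeb and apoc1l was not tested.

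Most tested genes of the neural and epidermal lists lay on the same side as apoc1l. Of 10 tested neural progenitor and glia genes, 9 were called lower in GFP-positive cells and 1, the glutamine synthetase gene glula, higher at 131 against 44.6 FPKM. Over all tested genes, 7.15% were called lower and 7.18% higher, shares that also stand beside the epidermal and endothelial counts below. The transcription factor gene sox3 had 10.7 against 304 FPKM and gfap, of the glial filament, 2.91 against 172 FPKM. Of 9 tested epidermal genes, 7 were called lower and 2 did not pass, with the keratin gene krt4 at 135 against 872 FPKM. In a typical tested member of each list, the GFP-positive level was 3.69% of the GFP-negative level for neural and 15.5% for epidermal genes (medians). For apoc1l it was 30.2%, and for apoeb 70.4%. Of 9 tested endothelial genes, 8 were called higher, among them the vascular growth factor receptor gene kdrl at 52.4 against 2.13 FPKM, and tie1, at 32.9 against 0.120 FPKM, did not pass. A high level in 1 fraction can give a row enough alignments for a test. The shared side and the medians of these lists are therefore no separate result. The part of the cell types behind these lists in the apoc1l difference was not tested.

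Over 4 lists of partners in lipid transport, 3 of 25 tested genes were called, which is 12.0% beside 14.3% of all tested genes, so the counts below are no result about the lists. For the assembly and secretion of lipoproteins, 0 of 9 tested genes were called by Cuffdiff and 0 had an unadjusted p under 0.05, against 14.3% and 23.9% over all tested genes. The highest was sar1b, the GTPase of the vesicles that carry large lipoproteins from the endoplasmic reticulum, with 62.7 FPKM in the GFP-positive fraction and 58.5 FPKM in the GFP-negative fraction. The median log2((FPKM + 1) ratio) of the 9 was 0.10, beside 0.05 for all tested genes.

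Among receptors, 1 of 6 tested genes was called. It was vldlr, a receptor of the LDL receptor family that binds apolipoprotein E in mammals, with 4.52 FPKM in the GFP-positive fraction and 16.3 FPKM in the GFP-negative fraction. Its q was 0.0349 in the authors' deposited table. All 6 tested receptor rows had the larger value in GFP-negative cells, beside 46.9% of all tested genes. The median log2((FPKM + 1) ratio) of the 6 was -0.96, beside 0.05 for all tested genes. A high level in 1 fraction can give a row enough alignments for a test, so the shared side is no result about the receptors. The sorting receptor gene sort1b, at 2.89 against 10.8 FPKM, was not called (q = 0.0825 in the authors' deposited table). The LDL receptor row ldlr was listed at 0 in both fractions, and scarb1, the high-density lipoprotein receptor gene, had 6.32 and 3.77 FPKM and no test.

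Among lipases and transfer proteins, 1 of 4 tested genes was called. The endothelial lipase gene lipg, named for its source in mammals, was lower in GFP-positive cells, with 6.72 against 64.9 FPKM. In the authors' deposited table the difference was 9.66-fold and q was 0.000958. Lipoprotein lipase, lpl, the enzyme that apolipoprotein C-II activates, had 56.2 and 62.2 FPKM and did not pass. Its inhibitor gene angptl4 was among the more abundant genes of the pathway, with 254 FPKM in the GFP-positive fraction and 356 FPKM in the GFP-negative fraction, and was not called either (q = 0.532 in the authors' deposited table).

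On the side of cholesterol release and efflux, 1 of 6 tested genes was called, in the other direction. The lysosomal cholesterol carrier gene npc2 was higher in GFP-positive cells, with 139 against 52.8 FPKM and in the authors' deposited table q was 0.0174. Its partner npc1 had 13.7 and 10.8 FPKM and did not pass. The efflux transporter gene abca1a, which hands cholesterol to apolipoprotein A-I, had 10.5 and 8.95 FPKM and did not pass. Besides the 11 genes, and leaving out names with apobec or apopt, 7 rows carry a name beginning with apo in lower case. Of these, apooa and apoob, subunits of a complex of the inner mitochondrial membrane, had a test and were not called, at 14.0 and 14.2 FPKM and at 11.2 and 12.7 FPKM. Their unadjusted p was not under 0.05 by Cuffdiff.

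**Figure D4:**
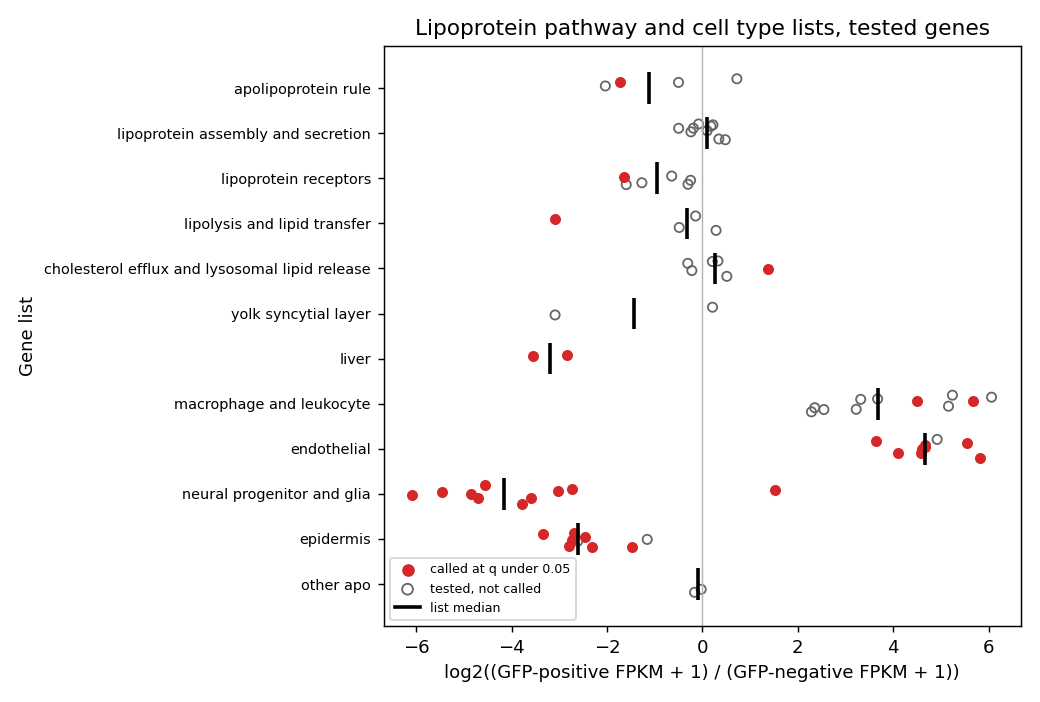
Each point is a tested gene of the list named on the vertical axis, at its log2((GFP-positive FPKM + 1) / (GFP-negative FPKM + 1)), with filled points called at a q under 0.05 in the authors' deposited table and a bar at the list median. The medians of the neural, epidermal and liver lists lie farther to the left than apoc1l, that of liver from 2 tested genes only. Of these lists, glula, epcam and tp63 lie to the right of apoc1l. The tested endothelial and macrophage genes lie to the right of 0, and the assembly list is centred near 0.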

How the data were processed

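The labels describe 2 GFP-positive and 2 GFP-negative RNA-seq libraries. Per the submitters' processing notes the tools were TopHat2 2.0.9 and Cuffdiff 2.1.1 on the Zv9 build; their settings are not given in the sources used here. Per the file headers, the deposited table holds 1 FPKM value per gene and fraction, a log2 ratio, a test score, a p-value and a q-value, all made by the authors. In that table the ratio has GFP-positive in the denominator, and its sign was turned here. It matched the FPKM columns within 1.33e-05, and the deposited q matched a Benjamini-Hochberg adjustment of the deposited p over 7299 tested genes within 5.26e-07. A further 24304 genes had too few alignments and 113 were LOWDATA. Locus starts are printed as deposited, and the table does not say from which base they count.

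Calls use q under 0.05. Lists were matched to the table's names, and 9 of the 11 gene IDs had a reference name. From each list all called genes are named if 6 or fewer, otherwise some of the 4 with the largest ratio, plus up to 2 not called. Others named beyond this (markers listed at 0, mxtx1, mxtx2, hnf4a, sort1b, npc1, abca1a, glula, kdrl, krt4, tie1, mtp, scarb1, cyba, c1qa and c1qc) were chosen after their values were seen. The members and lists were chosen with earlier results of these data known. Alternatives were a q of 0.01, pseudocounts of 1 and 0.1 FPKM, centring, a minimum log2 ratio of 1 and adjustment over subsets of genes. The code was tested on simulated data. It ran in Python 3.11.15 with pandas 2.3.3.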

Additional observations from a re-analysis of the deposited data

How the results depend on the processing

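No paired analysis was possible because the table holds 1 value per fraction, and for the same reason no library could be left out in turn. For apoc1l the log2 ratio of GFP-positive over GFP-negative was -1.73 and lay between -2.00 and -1.72 under the other scales and pseudocounts. For apoeb it was -0.51, between -0.77 and -0.50. Other scales and pseudocounts keep the deposited q and so test no call. A q of 0.01 and a minimum log2 ratio of 1 only set stricter limits on the deposited values, and apoc1l met both. With p adjusted over genes of at least 1 FPKM, q did not change for apoc1l (0.00177) or apoeb (0.501), so that setting tests no call either. With p adjusted over genes alone in their locus, apoc1l stayed called (q = 0.00159) and apoeb was not called (q = 0.479). The values farthest from 0 come from taking each gene as a share of the summed FPKM of its fraction, an alternative chosen after seeing the data that moves every gene by -0.27; without globin rows the move is -0.10. Centring lowered the log2 ratio of all genes by 0.01. At a q of 0.01, 0 lipoprotein receptor and 0 cholesterol efflux genes were called instead of 1 each, 5 endothelial genes instead of 8 and 4 epidermal genes instead of 7, because the threshold is stricter. Matching lists by reference names as well, also chosen after seeing the data, left each count of called genes unchanged. The depth is unknown, so the low values of the genes without a test have no interval.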
